A study of Mus musculus with 294 samples.

Results

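The genes described here are 10 collagen chains: the 5 fibrillar chains Col1a1, Col1a2, Col3a1, Col5a1 and Col5a2, the 3 type VI chains Col6a1, Col6a2 and Col6a3, and the 2 fibril-associated chains Col12a1 and Col14a1. They were chosen by name, and all 10 were among the 15124 genes of the deposited raw counts. The counts come from single cells of the embryonic mouse heart. The cells were taken near the aorticopulmonary septum of the outflow tract of embryos carrying Wnt1-Cre and R26-EYFP, and were sorted for EYFP. Wnt1-Cre is active in the dorsal neural tube, so the fluorescent reporter stays on in descendants of the neural crest whatever they later become. All cells share this genotype and sort, received no treatment and form 1 group without a control.

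Embryos from E11.5 up to E17.5, with E14.5 and E12.5 as the ages between, were used, but no label ties a cell to an age, an embryo or a chip. Cells were therefore set side by side only by name series, that is, by the leading digit of their names, which has no explanation in the labels. Series 1 to 7 hold 58, 48, 38, 38, 34, 34 and 44 cells. Whether a series stands for an age, a day or a chip cannot be told apart here. With 1 group and cells as the only repeats, no test between series was made. All values are descriptions of these cells.

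Collagens are proteins of 3 chains wound into a triple helix, in which glycine recurs at regular steps along each chain. Type I collagen is made of Col1a1 and Col1a2 chains, type III of Col3a1 alone, and type V of Col5a1 with Col5a2. These types form the striated fibrils of connective tissue, with type V at the fibril core. Type VI collagen joins Col6a1, Col6a2 and Col6a3 into beaded filaments around cells, and Col12a1 and Col14a1 form homotrimers that sit on the surface of fibrils. In the outflow tract, neural crest cells contribute to the septum, the smooth muscle of the great arteries and the cushions that shape the valves, all of which are rich in collagen.

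The genes differ in how much of the protein is triple helix, which can be read from their exons. One exon of each gene is printed below, taken from GENCODE M21 on GRCm38 (mm10), 5′ to 3′ on the coding strand, with the glycine codon (GGN) that opens each group of 3 codons in capitals. Other glycine codons are left in lower case. They show the repeat that defines the family.

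Col1a1 exon (chr11:94939904-94939957, plus strand): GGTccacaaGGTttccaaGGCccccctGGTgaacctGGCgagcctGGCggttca
Col1a2 exon (chr6:4515481-4515534, plus strand): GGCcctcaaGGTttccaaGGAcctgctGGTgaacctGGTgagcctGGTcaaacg
Col3a1 exon (chr1:45325360-45325413, plus strand): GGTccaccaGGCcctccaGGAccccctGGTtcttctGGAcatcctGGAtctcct
Col5a1 exon (chr2:27965251-27965304, plus strand): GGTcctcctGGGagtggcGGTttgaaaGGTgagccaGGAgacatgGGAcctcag
Col5a2 exon (chr1:45422386-45422439, minus strand): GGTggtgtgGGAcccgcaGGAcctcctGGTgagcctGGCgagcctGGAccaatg
Col6a1 exon (chr10:76717795-76717857, minus strand): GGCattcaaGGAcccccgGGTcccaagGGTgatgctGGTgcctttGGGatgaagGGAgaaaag
Col6a2 exon (chr10:76610160-76610222, minus strand): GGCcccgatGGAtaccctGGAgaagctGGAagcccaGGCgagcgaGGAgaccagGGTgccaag
Col6a3 exon (chr1:90789031-90789093, minus strand): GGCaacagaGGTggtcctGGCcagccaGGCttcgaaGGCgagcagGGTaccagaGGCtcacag
Col12a1 exon (chr9:79612916-79612969, minus strand): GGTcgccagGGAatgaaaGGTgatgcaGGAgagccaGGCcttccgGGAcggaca
Col14a1 exon (chr15:55472927-55472980, plus strand): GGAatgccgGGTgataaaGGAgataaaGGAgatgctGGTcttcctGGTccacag

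The longest unbroken run of such triplets was 338 or more in each of the 5 fibrillar genes. It was 87 in Col6a1 and in Col6a2, 45 in Col6a3, and 32 in both Col12a1 and Col14a1. The longest run took 69.8% of the coding codons of Col1a1 and 3.13% of those of Col12a1. An interruption ends a run, so the longest run need not cover the whole repeat. With all runs of 5 or more triplets counted, the type VI genes were nearly equal, Col6a3 included. Col12a1 and Col14a1 were equal and somewhat lower, and the fibrillar genes still held the most. Exons of 54 bases were the commonest size within the longest run in the fibrillar genes and in Col12a1 and Col14a1. Exons of 63 bases were the commonest in the type VI genes. RefSeq windows on GRCm38.p6 upstream of the start site were matched for 6 of the 10 genes (Col1a2, Col3a1, Col5a1, Col6a1, Col6a2 and Col6a3).

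3 windows of 250 bases that lie wholly outside annotated exons are shown, because they differ in base composition and in the motifs they hold. Capitals mark matches on either strand to TATAAA (in Col3a1) or to the GC box GGGCGG (in Col5a1 and Col6a2).

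Col3a1 window (chr1:45311288-45311537, plus strand): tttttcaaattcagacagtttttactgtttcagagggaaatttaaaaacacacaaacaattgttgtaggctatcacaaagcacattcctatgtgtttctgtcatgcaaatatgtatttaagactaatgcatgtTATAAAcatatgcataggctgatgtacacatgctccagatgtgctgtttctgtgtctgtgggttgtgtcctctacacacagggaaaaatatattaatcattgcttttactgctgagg
Col5a1 window (chr2:27886175-27886424, plus strand): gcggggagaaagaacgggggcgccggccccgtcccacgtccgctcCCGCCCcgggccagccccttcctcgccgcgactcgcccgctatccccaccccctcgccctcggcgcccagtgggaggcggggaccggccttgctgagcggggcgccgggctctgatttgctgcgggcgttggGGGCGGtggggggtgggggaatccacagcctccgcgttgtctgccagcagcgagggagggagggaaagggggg
Col6a2 window (chr10:76623631-76623880, minus strand): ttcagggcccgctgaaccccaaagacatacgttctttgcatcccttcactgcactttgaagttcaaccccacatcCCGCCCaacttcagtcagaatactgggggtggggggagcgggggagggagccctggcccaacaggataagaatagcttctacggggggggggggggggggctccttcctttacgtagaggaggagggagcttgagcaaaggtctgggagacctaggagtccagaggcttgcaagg

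The Col3a1 window had a GC content of 35.2% and held 1 TATAAA match. The Col5a1 window had a GC content of 76.4% and held 2 GC boxes. The Col6a2 window shown had a GC content of 59.2% and held 1 GC box. A second Col6a2 window, which overlaps the annotated gene and is not shown, had a GC content of 64.4% and held 3 GC box matches. Of all 32851 RefSeq windows of the same length, 12.4% held TATAAA and 32.7% held the GC box. These matches are letters in a window, and nothing here measured binding.

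A cell had 34046 to 3033857 reads, with a median of 1204543, and series medians lay between 635879 and 1630832. The libraries carry no molecular identifiers, so reads are not independent molecules. The intervals below treat cells as independent draws and cover counting error over cells only. They do not cover differences between series or between embryos. Levels are CPM, the cell's reads scaled to a cell total of 1000000. A gene was called detected in a cell at 10 CPM or more. Series 1 stood apart: its cells had a median of 7718 genes with a read, against 3123 to 4676 in the other series. Abundant genes of series 1 also seldom fell to 0 (a low-end level with a median of 2.43% of the series mean, against 0 elsewhere), so results that rest on it are also given without it. Cells with at least 3 of 7 mesenchymal markers (such as Pdgfra, Postn and Lum) made up 96.6% of all cells.

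The fibrillar chains were detected in nearly every cell. Col3a1 (ENSMUSG00000026043.18, chr1:45311538-45349706), the chain of type III collagen, ran from 3.18 to 25252 CPM with a median of 2864 CPM, and was detected in 99.7% of cells (exact 95% interval 98.12% to 99.99%). Its series medians ran from 2289 CPM in series 5 to 4260 CPM in series 6. The quartile ranges of these 2 series overlapped (1241 to 3313 and 1986 to 6765 CPM). Col1a2 (ENSMUSG00000029661.16, chr6:4504814-4541544), the second chain of type I collagen, ran from 0 to 28239 CPM with a median of 1130 CPM, and was detected in 99.3% of cells (97.6% to 99.9%). Its series medians were 1991, 3076, 1395, 506.8, 397.1, 1126 and 678 CPM for series 1 to 7, highest in series 2 and lowest in series 5.

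Col1a1 (ENSMUSG00000001506.10, chr11:94936224-94953042), the other chain of type I collagen, was detected in 96.9% of cells (94.3% to 98.6%) and had a median of 420 CPM, between 0 and 17122 CPM. Its series medians were 783.6, 1650, 433.6, 153.8, 348.4, 144.1 and 372.8 CPM for series 1 to 7. Series 2 was again highest, but its cells spanned 1.98 to 17122 CPM and so overlapped those of every other series. The 2 chains of type V collagen, which sets fibril width, were close to each other in CPM. Col5a1 (ENSMUSG00000026837.15, chr2:27886425-28039514) had a median of 482 CPM (0 to 3938 CPM) and was detected in 96.9% of cells. Col5a2 (ENSMUSG00000026042.16, chr1:45374321-45503282) had a median of 542 CPM (0 to 5537 CPM) and was detected in 93.5% (90.1% to 96.1%). The pair parted in series 2, where Col5a1 had a median of 1005 CPM, the highest of the 7 series. The Col5a2 median was the lowest of the 7 there, with quartiles of 104.6 and 815.5 CPM.

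**Figure D1:**
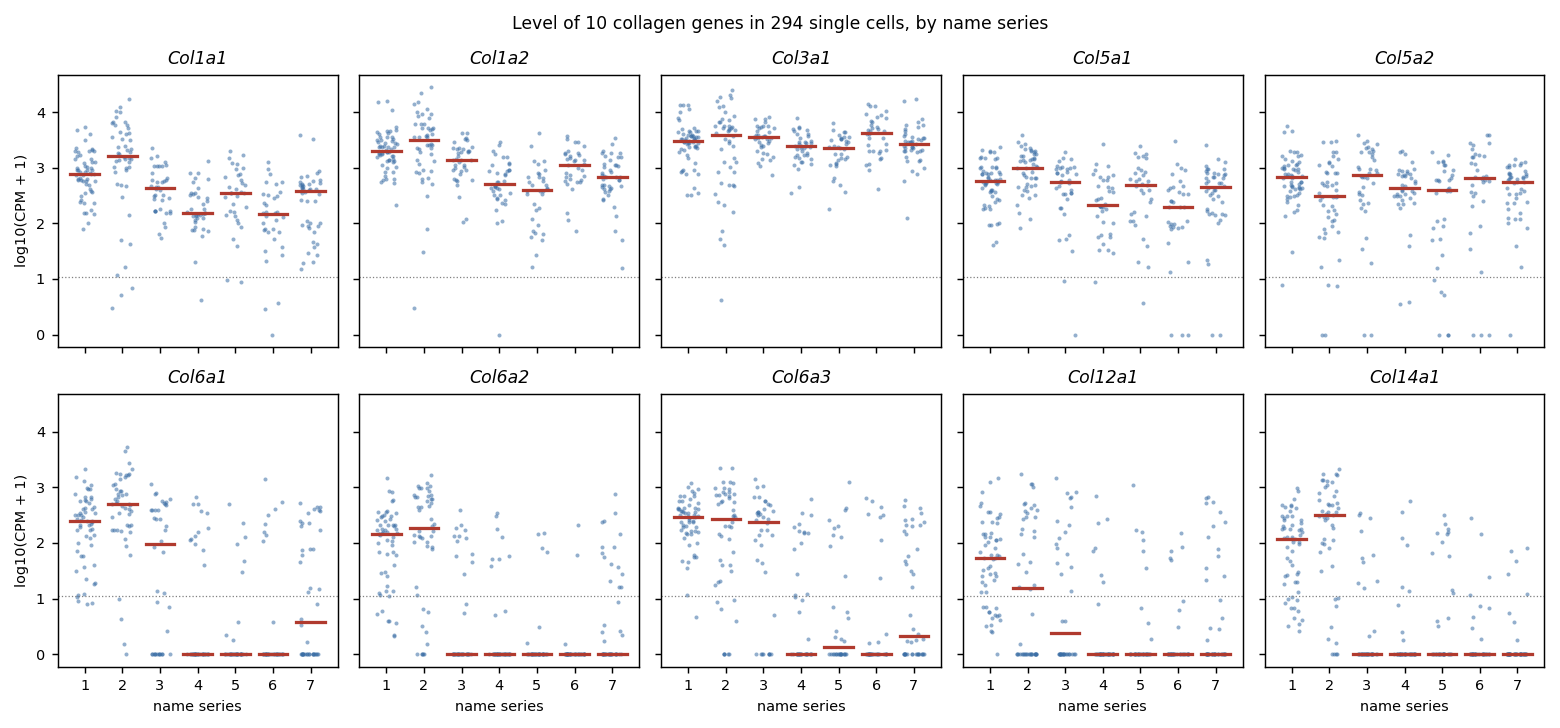
Levels of the 10 collagen genes in each cell by name series, as log10(CPM + 1); points are cells, red bars are series medians and the dotted line is 10 CPM. The fibrillar chains (upper row) lie above the line in nearly all cells, while medians of the other chains (lower row) fall to 0 or near it in series 4 to 6.

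The type VI chains divided the cells. Col6a3 (ENSMUSG00000048126.16, chr1:90765923-90843971), the longest chain, was detected in 59.9% of cells (54.01% to 65.51%), with a median of 71.2 CPM and a highest value of 2250 CPM. Col6a1 (ENSMUSG00000001119.7, chr10:76708792-76726168) was detected in 57.1% (51.3% to 62.9%), with a median of 63.8 CPM and a highest value of 5287 CPM. Col6a2 (ENSMUSG00000020241.13, chr10:76595762-76623630) was detected in 44.2% (38.5% to 50.1%), with a median of 1.53 CPM and a highest value of 1651 CPM. Without series 1 these shares were 50.4%, 48.3% and 33.5%.

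The shares differed between name series, and within several series cells with and without a chain were both common. For Col6a1 the share of cells was 93.1% in series 1 and close to it, 91.7%, in series 2. It was 60.5% in series 3, and 34.2%, 17.6%, 23.5% and 45.5% in series 4 to 7. Col6a2 had 87.9% and 79.2% in series 1 and 2, and its lowest share, 5.88%, in series 6, where 2 of 34 cells had it. Col6a3 was also common in series 3, with 98.3%, 81.2% and 76.3% in series 1 to 3, and 36.8%, 29.4%, 23.5% and 43.2% in series 4 to 7. All 3 type VI chains were detected together in 76.4% of the cells of series 1 and 2, and in 5 of 150 cells of series 4 to 7 (3.33%). At the stricter level of 100 CPM, which lies above the low-end level of series 1 for these genes, Col6a1 was present in 72.4% of series 1 and 87.5% of series 2 cells, against 8.82% to 27.3% in series 4 to 7.

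The fibril-associated chains were the least often detected. Col14a1 (ENSMUSG00000022371.16, chr15:55307750-55520803) was detected in 40.8% of cells (35.2% to 46.7%), with a median of 1.55 CPM and a highest value of 2152 CPM. Series 1 and 2 again led, with 79.3% and 79.2% of their cells, and the other series ran from 11.4% (series 7) to 32.4% (series 5). In series 7 no cell reached 100 CPM, the highest being 80.8 CPM. Col12a1 (ENSMUSG00000032332.17, chr9:79598991-79718831) was detected in 39.5% (33.8% to 45.3%), with a median of 0 CPM and a highest value of 1707 CPM. Series 1 to 3 had shares of 74.1%, 52.1% and 44.7%, while the remaining series had 14.7% to 29.5%. Both were detected together in 3 of 150 cells of series 4 to 7.

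**Figure D2:**
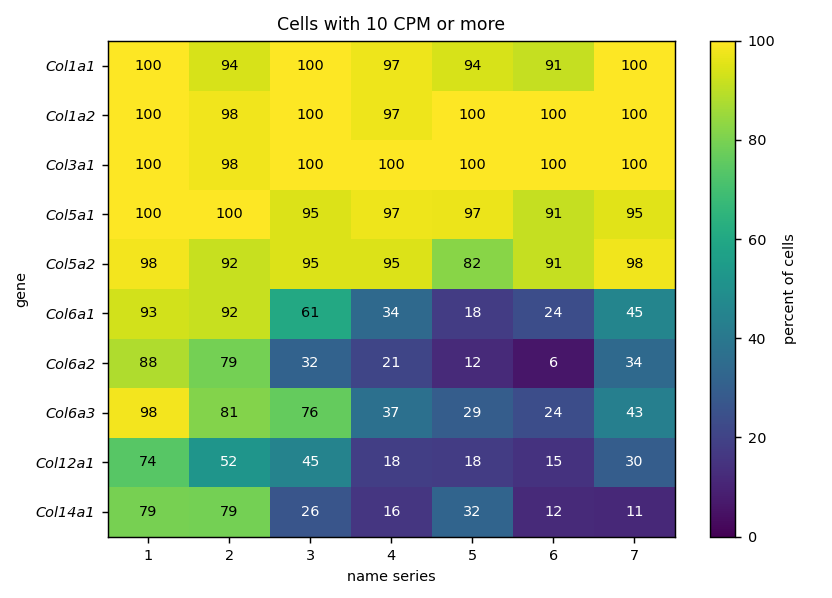
Percent of cells with 10 CPM or more of each gene (rows) in each name series (columns), coloured from 0 to 100. The 5 fibrillar chains stay at 82% or more in every series, while the type VI and fibril-associated chains are highest in series 1 and 2, at 52% to 98%.

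Per cell, 3 to 10 of the 10 chains were detected, with a median of 7. The series medians were 10, 9, 7, 6, 6, 5 and 7 for series 1 to 7. Thinning every cell to 250000 reads, which left out 25 shallower cells, gave the same 7 medians. Genes with a read per cell also differed, with medians of 7718, 4452, 3300, 4211, 3782, 3123 and 4676 for series 1 to 7. Their part in the number of chains was not tested. All 10 chains were detected in 46 cells, 33 of them in series 1, 11 in series 2 and 2 in series 3. No cell of series 4 to 7 had all 10 (0 of 150, so a share of up to 2% remains possible). The count of all 10 was not made at 100 CPM. At that level Col6a2 was in 60.3% of series 1 and 68.8% of series 2 cells. In the same order, Col14a1 was in 55.2% and 66.7%, and Col12a1 in 37.9% and 37.5%. All 5 fibrillar chains were detected in 87.4% of cells. No cell lacked all 5, and a share of at most 1.02% is compatible with a count of 0. 70 cells (23.8%) had none of the type VI chains. Of all genes in the table, 14.4% were detected in at least 50% of cells, and 7 of the 10 collagens were: the 5 fibrillar chains, Col6a1 and Col6a3, although Col6a1 fell short of that share without series 1 (48.3%).

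Summed over the 10 genes, collagen reads made up 0.0562% to 8.32% of a cell's reads, with a median of 0.624% (6241 CPM). The highest series median was 12283 CPM in series 2 and the lowest 4668 CPM in series 7. Series 2 also had the widest middle range, 5733 to 23823 CPM between its quartiles, and overlapped every other series.

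Set side by side per kilobase of exon, the chains could be put in order by their medians. Col3a1 had a median of 291.8 on the scale of CPM per kilobase, followed by Col1a2 with 90.9, Col1a1 with 63.9, Col5a1 with 56.8 and Col5a2 with 56.5. Next came Col6a1 with 14.6, Col6a3 with 5.95, Col14a1 with 0.22, Col6a2 with 0.18 and Col12a1 with 0. The quartile ranges of all neighbours in this order overlapped, so the order of Col1a1, Col5a1 and Col5a2 in particular is within the spread of cells. The scale uses all annotated exons of a gene. By the longest transcript, Col1a2 stood at 211.3 and Col3a1 at 514.8. Their annotated exons add up to 12426 and 9816 bases against transcripts of 5348 and 5564 bases. On this scale Col5a2 (81.8) preceded Col1a1 (70.7) and Col5a1 (57.4). The medians of the type VI chains depended most on series 1 and 2, and fell when either was left out. Per kilobase of exon, the Col6a1 median was 1.07 without series 1, 2.44 without series 2 and 24.9 without series 5. The Col6a3 median was 0.90 without series 1, 3.79 without series 2, 3.86 without series 3, and between 9.51 and 10.4 with one of series 4 to 7 left out. Col6a2 and Col14a1 had medians of 0 without series 1 or 2 and at most 0.75 and 0.83 with another series left out, while leaving out any one series moved the medians of the type I, III and V chains by less than 1.5 times.

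Differences between series were measured as the highest over the lowest series mean, with 10 CPM added to both. 8 of the 10 genes had a range of 3-fold or more, and so did 50.1% of the 8853 genes that reached detection in 10% or more of cells. The median range was 8.63-fold for the collagens and 3.003-fold for all these genes. Without series 1 the count stayed at 8, beside 45.5% of genes. Col14a1 had the widest range, 32.7-fold, from a mean of 496.3 CPM in series 2 to 5.47 CPM in series 7. Col6a2 (21.8-fold), Col6a1 (21.6-fold) and Col1a1 (12.2-fold) followed, and Col12a1, Col1a2, Col6a3 and Col5a1 had 9.50-fold, 7.77-fold, 6.05-fold and 3.19-fold. The 2 genes under 3-fold were Col3a1 (2.21-fold) and Col5a2 (2.04-fold). Series 2 held the highest mean for 9 of the 10 genes, Col5a2 being the exception, and for 12.5% of all genes considered. By medians series 2 led for fewer genes. The Col3a1 median was higher in series 6 (4260 CPM) than in series 2 (3900 CPM). In series 1 the medians of Col6a3 (292.7 CPM) and Col12a1 (53.1 CPM) exceeded those of series 2 (262.6 and 14.6 CPM).

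Chains of one protein were compared within cells that had at least 10 CPM of both. In type I collagen, the ratio of Col1a1 to Col1a2 per kilobase had a median of 0.86 in the 96.6% of cells that qualified (quartiles 0.43 and 1.45). By the longest transcript it was 0.41 (quartiles 0.20 and 0.69), so the value depends on the length used, and 14.1% of cells had more Col1a1 than Col1a2 on that scale. Differences between series do not depend on the length: per kilobase of exon, the median was highest in series 5 (1.73) and lowest in series 6 (0.40). The type V ratio of Col5a1 to Col5a2 had a median of 0.96 in 90.5% of cells (quartiles 0.36 and 2.56). Series 2 stood highest at 3.07 and series 6 lowest at 0.33.

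Type VI ratios rest mainly on series 1 and 2. Col6a1 exceeded Col6a2 with a median ratio of 3.38 in 37.8% of cells (quartiles 1.49 and 7.23), and the medians of series 1 and 2 were 3.53 and 3.26. By the longest transcript this ratio was 2.13. Col6a3 and Col6a2 were closer, at 1.20 in 35.4% of cells (quartiles 0.54 and 2.66), but their order turned to 0.93 without series 1 and 0.84 by the longest transcript. Col3a1 exceeded Col1a1 by a median ratio of 3.66 in 96.6% of cells, from 1.23 in series 2 to 15.6 in series 6. By the longest transcript the median was 5.83. Among the 3 ratios with at least 27 cells in every series, this one, type III over type I, spread furthest over the series. Col12a1 was lower than Col14a1 in the 70 cells with both, with a median ratio of 0.34, and 39 of these cells were in series 1 and 21 in series 2. Over all cells, by mean CPM not scaled by length, Col14a1 was higher in series 1, 2 and 6. Col12a1 was higher in series 3 (156.1 against 34.5 CPM), 4, 5 and 7 (79.4 against 5.47 CPM).

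**Figure D3:**
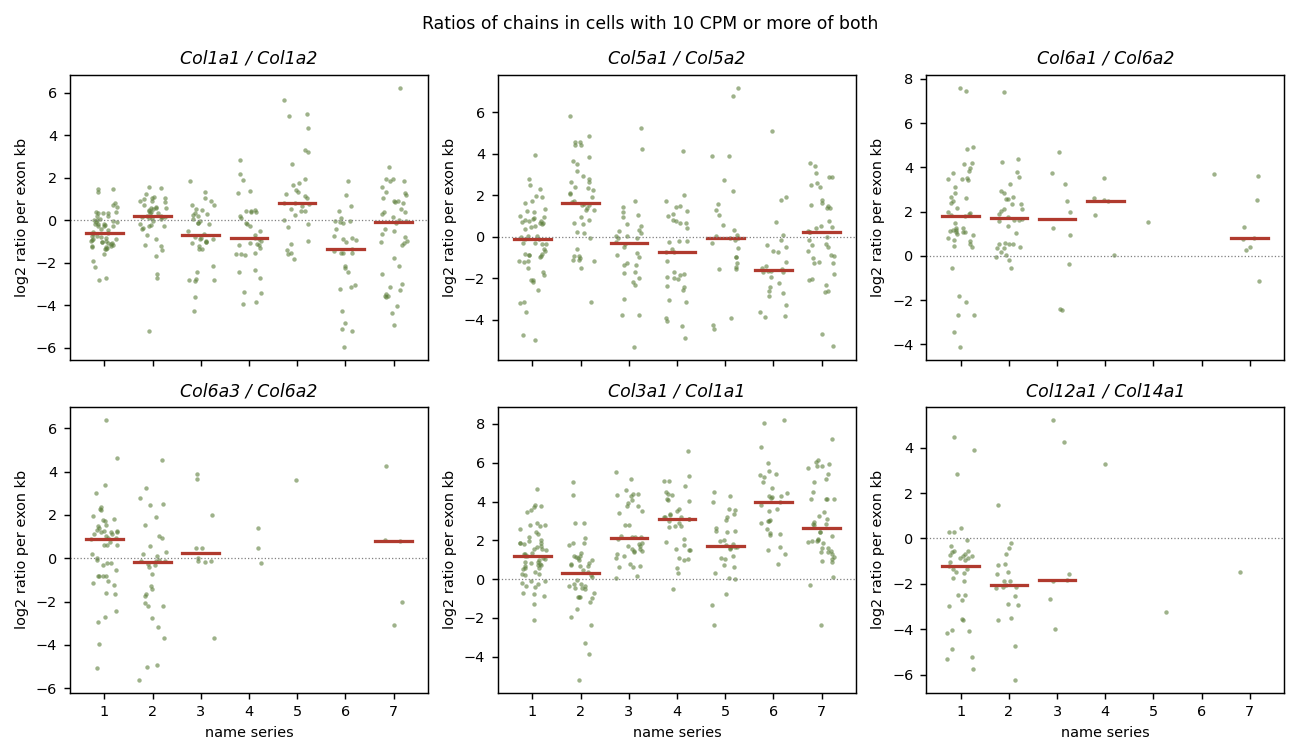
Log2 ratio of 2 chains per kilobase of exon in cells with 10 CPM or more of both, by name series; points are cells, red bars are medians where at least 5 cells had a ratio, and the dotted line marks equal levels. The Col3a1 to Col1a1 ratio is lowest in series 2 (1.23) and highest in series 6 (15.6), and few cells of series 4 to 7 give a type VI ratio.

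Whether chains go up and down together from cell to cell was described by Spearman's correlation of log2(CPM + 1) within each series. A pair was called where the median over the 7 series was 0.20 or more and all 7 values were above 0. 8 of the 45 pairs were called, beside 0.420% of all pairs of genes detected in at least 10% of cells and 0.579% of pairs of genes detected in at least 30%. The median over the 45 pairs was 0.10, and 0.03 over all gene pairs. These correlations are weak to moderate. Cells of a series may share a preparation, and they differed in depth (34046 to 3033857 reads in series 2). With total reads and genes detected per cell regressed out, 6 pairs were called. Without series 1 the number called was 5, and without series 3 it was 4.

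5 of the 8 called pairs joined fibrillar chains. Col3a1 and Col5a2, which lie tail to tail on chromosome 1 with 24614 bases between them, had the highest median, 0.44, with 0.03 in series 4 and 0.64 in series 2. Col1a1 with Col5a1 (0.37), Col1a2 with Col5a2 (0.37) and Col1a2 with Col3a1 (0.36) were called in the main analysis and in all 13 alternatives that kept the 0.20 level. Col1a1 with Col5a2 (0.22) was the fifth. The remaining called pairs were Col1a2 with Col12a1 (0.23), Col6a1 with Col6a3 (0.21) and Col3a1 with Col6a1 (0.21). Col5a1 and Col5a2, though partners in type V collagen, had a median of only 0.05.

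The 2 chains of type I collagen showed how far this differed between series. Col1a1 and Col1a2 had a correlation of 0.67 in series 1 and 0.91 in series 2. It was 0.31, 0.13 and 0.34 in series 3 to 5, -0.03 in series 6 and 0.03 in series 7. The pair was not called for that reason, although its median was 0.31. Across all 45 pairs the median correlation was likewise 0.31 and 0.36 in series 1 and 2, and 0.00 to 0.17 in series 3 to 7. Col6a1 and Col6a2 lie in tandem on chromosome 10 with 85161 bases between them. Their median was 0.25, and the value was below 0 in series 5 (-0.04), where 6 and 4 of 34 cells had the 2 genes.

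**Figure D4:**
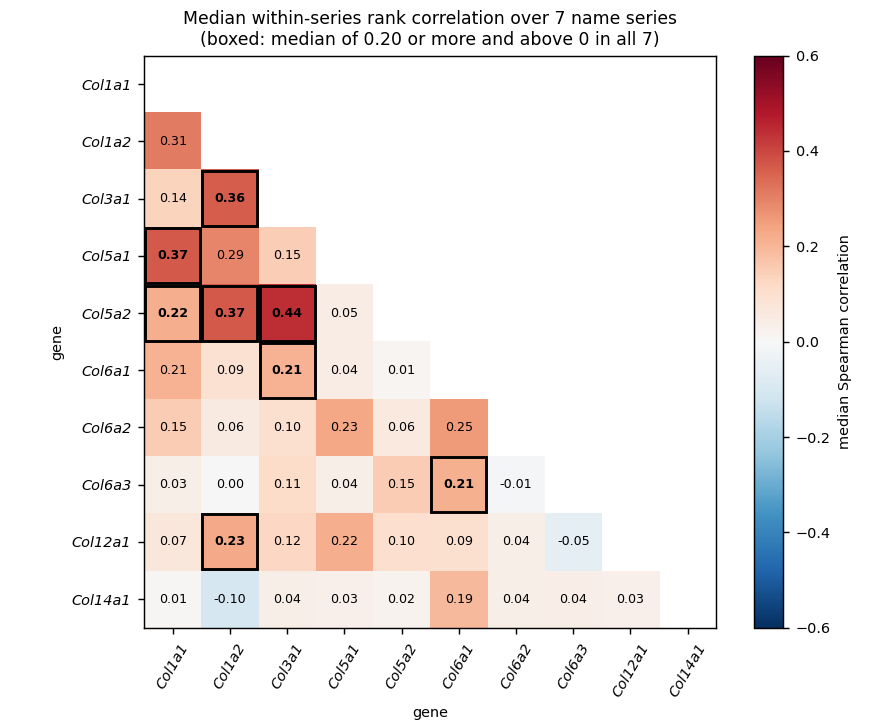
Median over 7 name series of the within-series Spearman correlation for each pair of collagen genes, coloured from -0.6 to 0.6; boxes mark called pairs. The boxes gather among the fibrillar chains, with the highest value, 0.44, for Col3a1 and Col5a2.

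Genes outside the list were ranked by their median correlation with a chain among those above 0 in all 7 series. For Col1a1 the nearest were Gpc3 (0.34), a cell-surface proteoglycan, Rcn3 (0.33), a calcium-binding protein of the endoplasmic reticulum, and Sfrp2 (0.31), a secreted Wnt modulator. For Col5a2 the nearest was Ptn (0.42), a secreted heparin-binding growth factor, which was also among the 3 nearest of Col3a1 (0.28) and Col6a3 (0.25). Col3a1 was nearest to Aspn (0.34), a small leucine-rich proteoglycan, and Col12a1 to Sparc (0.31), a collagen-binding matrix protein. For Col1a2 the nearest was Foxp2 (0.30), for Col5a1 Maged2 (0.35), for Col6a1 Dse (0.23), for Col6a2 Rhoj (0.27), for Col6a3 Robo1 (0.26) and for Col14a1 Txnrd1 (0.26). In series 6 only 5.88%, 14.7% and 11.8% of cells had Col6a2, Col12a1 and Col14a1, so correlations of these chains there rest on few cells. Averaged over all 10 chains, Ptn (0.19), Aspn (0.14) and Adamts2 (0.14), the protease that removes the amino-terminal propeptide of fibrillar collagens, were highest of 4408 genes, whose median was 0.01. The lowest were Psma7 (-0.13), a proteasome subunit, and Eif1 (-0.12), a translation initiation factor.

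Collagen has to be hydroxylated, folded, trimmed and crosslinked before it forms fibrils. Of 63 listed genes for these steps, for fibril surface proteins, for receptors and for breakdown, 34 (53.97%) were detected in at least 50% of cells, beside the 14.4% of all genes given above. Without series 1 the number was 30, since P3h4 (47.03%), Crtap (46.2%), Adamts2 (43.2%) and Dcn (47.9%) then lay below 50%. Their median share of cells was 54.4%, and that of all genes was 14.6%. In folding and export, 12 of 21 genes were in most cells. These included P4hb (97.96%, median 707.9 CPM), a subunit of prolyl 4-hydroxylase, Serpinh1 (96.3%, quartiles 80.2 and 337.3 CPM), the collagen-specific chaperone, and Ppib (87.1%), a prolyl isomerase. P3h2, a prolyl 3-hydroxylase, was in 7.82%.

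In propeptide cleavage, 3 of 7 genes were in most cells: Bmp1 (68.4%), the C-proteinase, its enhancer Pcolce (59.5%) and Adamts2 (51.7%). Of the crosslinking oxidases, Loxl2 was in 88.1% of cells with a median of 315.8 CPM, Loxl1 in 65.6%, Lox in 56.8%, Loxl3 in 6.803% and Loxl4 in 2.04%. Loxl2 had its highest series mean in series 5 (1308 CPM) and its lowest in series 2 (328 CPM). Lox had the opposite order, with its highest mean in series 2 (488.5 CPM) and its lowest in series 5 (119.2 CPM). Series 2 also held the highest mean, though not always the highest median, of 9 of the 10 collagens.

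On the fibril surface, 10 of 13 genes were in most cells, led by Sparc (99.7%), Postn and Fbln2 (both 97.96%). Dcn, which coats type I fibrils, was in 58.2% of cells, with series means from 46.3 CPM in series 5 to 8419 CPM in series 1. Among receptors, 2 of 11 (18.2%) were in most cells, beside 14.4% of all genes. They were Itgb1 (96.6%), the beta chain shared by the collagen-binding integrins, and Antxr1 (62.2%). The collagen-binding alpha chains were found less often, with Itga1 in 28.9%, Itga11 in 10.9%, Itga10 in 5.10% and Itga2 in 4.08% of cells. Ddr2, a tyrosine kinase that binds fibrillar collagen, was in 46.3%. Of 6 genes for breakdown and its control 4 were in most cells: Mmp2 (88.8%), Mmp14 (88.1%), Timp2 (85.4%) and Timp3 (69.05%).

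Of 29 other collagen genes in the table, 3 (10.3%) were detected in most cells, beside 14.4% of all genes. They were Col18a1 (74.5%) of basement membranes, Col9a1 (58.2%), a chain of cartilage type IX collagen, and Col4a1 (56.5%, and 48.7% without series 1), a basement membrane chain. The other type V chain, Col5a3, was in 2.04% of cells, and the alternative type VI chains Col6a6 and Col6a5 were in 11.6% and 2.04%. The order of series differed among these genes. Col9a1 had its highest mean in series 6 (544 CPM) and its lowest in series 2 (52.3 CPM), and Col2a1, the cartilage fibrillar chain, had its highest mean in series 5 (270 CPM) and its lowest in series 1 (18.8 CPM). Col4a1 had its highest mean, 379 CPM, in series 2 and its lowest, 44.4 CPM, in series 6.

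Within series, 14 fixed genes of smooth muscle, mesenchyme, cell division and growth factor signalling were set against the 10 chains, which gave 140 pairs. The correlation was above 0 in all 7 series for 9 pairs and below 0 in all 7 for 3, and medians ran from -0.26 to 0.30. Of all 86780 pairs of a chain with a gene outside the list, 1.62% were above 0 in all 7 and 0.902% below. Most of these medians are weak. Among smooth muscle genes, Tagln was above 0 with Col12a1 in all 7 series (median 0.24) and Acta2 with Col1a1 (median 0.10). Myh11, a marker of mature smooth muscle, had a median of -0.14 with Col3a1, but no cell of series 4 to 6 reached 10 CPM of Myh11, so its sign there rests on levels below detection. Lum, a small proteoglycan, was below 0 with Col12a1 in all 7 (median -0.26), and Dcn, its relative, was above 0 with Col6a3 in all 7 (median 0.09). Twist1, a mesenchymal transcription factor, was below 0 with Col5a1 in all 7 (median -0.12). The other pairs above 0 in all 7 were Pdgfra with Col5a2 (0.23), Postn with Col6a2 (0.21), Tgfb2 with Col1a2 (0.21), Tgfbi with Col1a1 (0.14), and Mki67, a gene of dividing cells, with Col14a1 (0.15) and Col12a1 (0.08). Col6a2, Col12a1 and Col14a1 were detected in 2, 5 and 4 of 34 cells of series 6. The signs of their pairs there rest on few cells.

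A few cells carried glial markers, and those of series 2 differed from most other cells of series 2 in several collagens. 9 cells, 3 in series 1 and 6 in series 2, had at least 3 of the 5 glial markers Sox10, Fabp7, Foxd3, Ednrb and Erbb3 at 100 CPM or more. This rule was chosen after the data were seen: 2 further cells had exactly 2 such markers, and at 10 CPM the rule took 11 cells. In series 2 the 6 cells had Col1a1 at 1.98 to 50.2 CPM, with a median of 8.44 CPM. The other 42 cells of series 2 had 41.5 to 17122 CPM, with a median of 2034 CPM, so the ranges overlapped only at their ends. In the 6 cells Col6a3 lay between 0 and 16.5 CPM, against a median of 345.7 CPM and a range from 0 to 2250 CPM in the others. Col3a1 had a median of 410.0 CPM against 4722 CPM, and its ranges overlapped too.

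Col1a2 (medians of 318.7 and 3689 CPM), Col5a2 (66.6 and 439.4 CPM), Col6a2 (53.03 and 230.1 CPM) and Col6a1 (292.4 and 508.3 CPM) were lower in the 6 cells as well, with ranges that overlapped. The medians of Col5a1 lay close together, at 1003 CPM in the 6 cells and 1032 CPM in the others, and that of Col12a1 was 21.4 against 9.75 CPM. Col14a1 was detected in all 6, at 285.5 to 2152 CPM with a median of 418.5 CPM, and in 76.2% of the others, with a median of 270.8 CPM. Median depth was 1749471 reads in the 6 cells and 1584628 in the others. The 3 such cells of series 1 had 79 to 1440 CPM of Col1a1 with a median of 228.4 CPM, against 100.4 to 5416 CPM with a median of 788.5 CPM in the other series 1 cells, so these ranges overlapped. Leaving out all 9 cells kept the number of called pairs at 8, and the correlation of Col1a1 with Col1a2 in series 2 went from 0.91 to 0.89. Other pairs of series 2 moved more, in both directions. Col1a1 with Col6a3 went from 0.55 to 0.36, and Col1a1 with Col14a1 from 0.27 to 0.47. The median over all pairs of chains in series 2 stayed at 0.36.

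**Figure D5:**
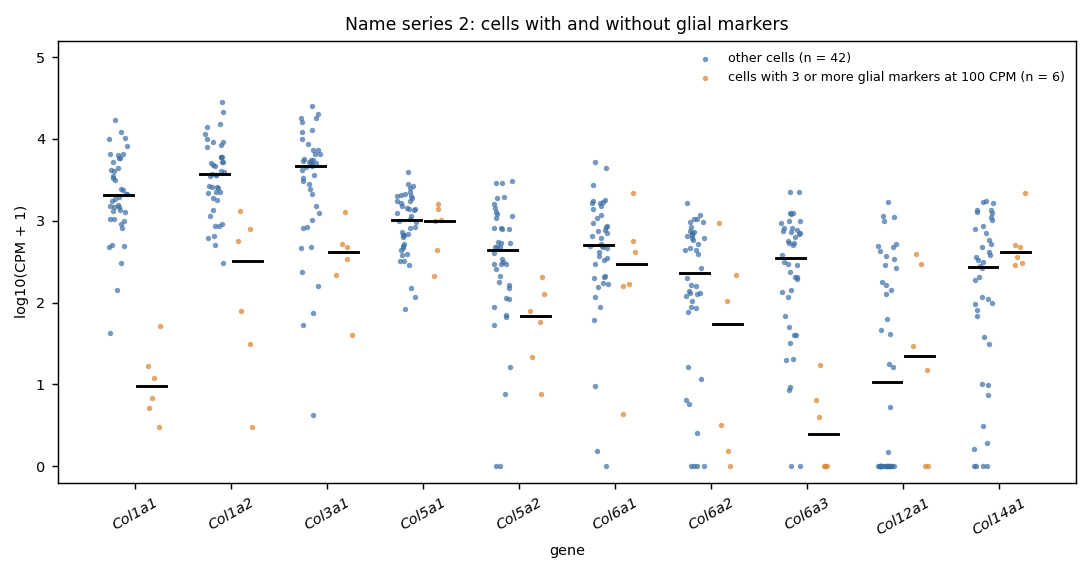
Levels of the 10 collagen genes in series 2 as log10(CPM + 1), in 6 cells with at least 3 glial markers at 100 CPM (orange) and in the other 42 cells (blue); points are cells and bars are medians. Orange medians of Col1a1 and Col6a3 (8.44 and 1.47 CPM) lie below the blue ones (2034 and 345.7 CPM), while those of Col5a1 are alike (1003 and 1032 CPM).

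Markers of other cell types were counted at 10 CPM. Of 6 cardiomyocyte markers, at least 3 were found in 3 cells. The endothelial, epicardial and neuronal lists had 3 genes each in the table, and all 3 were found together in 4 cells, all in series 1, in 1 cell and in no cell. The melanocyte list also had 3 genes in the table, but Tyr was detected in no cell, so the same count cannot be made for it. Its summed level had a median of 0 and a highest value of 538.3 CPM, and that of the neuronal list a median of 0 and a highest value of 2287 CPM. Smooth muscle markers were common, with at least 3 of 7 in 71.8% of cells, between 42.1% in series 3 and 100% in series 1. Summed mesenchymal markers had series medians from 6176 CPM in series 7 to 21844 CPM in series 1. Their part in the differences between series was not tested.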

How the data were processed

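Single EYFP-positive cells were captured on Fluidigm C1 chips and turned into full-length cDNA, and 294 libraries were sequenced as read pairs, per the labels' protocols. The submitters' processing notes name HISAT2 2.1.0, featureCounts, Seurat and mm10. The deposited raw table holds read counts of 15124 genes, as whole numbers made by the authors. The second deposited table holds a score, whole numbers with near-equal totals per cell, and served only as an alternative. The annotation and strand setting behind the counts are not given in the sources used here. No labelled statement ties a cell to an embryo, so cells count as 1 group and no p-value was computed.

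Counts were scaled to CPM (Python 3.11.15, pandas 2.3.3). All rows were gene rows. Exon lengths came from GENCODE M21 on GRCm38, which holds 14554 of the 15124 gene names. Col3a1 and Col5a1 share 1.44% and 2.50% of their exon bases with other annotated genes, whose reads cannot be told apart. Shares carry exact Clopper-Pearson 95% intervals. For the 0 of 150 cells with all 10 chains, the limit given instead allows 3 counts of the total. Doublets were not called, since captured cells were photographed before lysis, per the labels' protocols. Ranges over series and correlations were computed on all 8853 genes detected in at least 10% of cells and tested on simulated data. The genes named are the 10 chains, 6 fixed pathway lists, the other collagens, the 3 nearest genes of each chain, the 10 highest and 5 lowest on average, and fixed marker and anchor genes, of which a selection is printed. The members and lists were chosen with earlier results of these data known. Alternatives were another detection level, thinning with seed 1, pooled size factors (scran 1.30.0), other lengths, other correlation rules, deeper cells, and each series left out. Those without glial-marker cells were added after the data were seen. The blood marker list had no row in the table, and is not analysed here. Some glial markers of the fixed list are not reported here, and the glial rule uses the other 5.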

Additional observations from a re-analysis of the deposited data

How the results depend on the processing

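No paired analysis was possible because the cells form 1 group and carry no shared replicate numbers. The median number of chains per cell stayed at 6 to 8 and the summed level at 5854 to 6788 CPM under every alternative tried, and the number of chains with a 3-fold range at 7 or 8, while 10 had a 2-fold range. The 6 chain ratios moved by less than the spread of cells, although Col1a1 to Col1a2 went from 0.86 to 0.41 by the longest transcript, where the longer exon union of Col1a2 is not counted, Col3a1 to Col1a1 from 3.66 to 5.83 and Col6a1 to Col6a2 from 3.38 to 2.13. The order of levels per length was less firm. Of its 10 places, 6 were kept with cells of 250000 reads or more and 5 by the longest transcript, and 2 to 10 with a series left out (4 without series 1 and 2 without series 2). The number of called pairs, 8, became 5 with Pearson's correlation, 5 in the corrected table and 4 at a median of 0.30, and lay between 4 and 10 with a series left out (5 without series 1, 4 without series 3, 10 without series 6). 3 of the 8 pairs were called in all 13 alternatives at 0.20: Col1a1 with Col5a1, Col1a2 with Col3a1 and Col1a2 with Col5a2. The number of pathway genes in most cells, 34, became 16 at 100 CPM, and stayed between 30 and 35 when single series were omitted. The share of all genes was not computed under these alternatives. The causes were not tested. 25 cells had under 250000 reads, where 10 CPM is fewer than 3 reads. In the others, thinned to that depth, the shares of Col6a2, Col12a1 and Col14a1 were 42.4%, 37.2% and 39.4%, beside 44.2%, 39.5% and 40.8% of all cells unthinned.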
